A study of Bos taurus with 96 samples.

Results

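Intramuscular fat (IMF), the marbling fat dissected out of the longissimus dorsi, was compared with intermuscular fat (Inter), the fat that lies between muscles. Both are depots of skeletal muscle, 1 inside the muscle and 1 outside it. All 12 arrays labelled IMF and all 12 labelled Inter were used, 24 of the 96 arrays of the series, each with RNA of 1 sample on a bovine 4x44K one colour Agilent array. In both depots 4 arrays came from Angus, 4 from Hereford and 4 from Wagyu x Angus steers, and all 24 samples were from animals raised on pasture and then held for 259 days in a feedlot. The 36 arrays of longissimus dorsi muscle (LD), 24 from animals on pasture and 12 from animals given a supplement, come from the same 3 breeds and served to mark transcripts of muscle. According to the study's methods, part of these LD samples came from animals slaughtered earlier, which the labels do not tell apart. The labels do not say which arrays share a steer, and the study took several depots from each carcass, so the tests treat arrays as independent and their p-values measure the spread between these samples.

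In muscle, fat cells lie in the connective tissue between bundles of myofibres, beside small vessels and nerve branches. Intermuscular fat forms larger lobules between whole muscles. Both hold mature adipocytes, which make and store triacylglycerol, together with progenitor cells, endothelium, mural cells of vessels and resident macrophages. Myelinating Schwann cells wrap nerve fibres, and smooth muscle cells surround vessels. Which cells gave these transcripts in the present samples was not tested. In bulk RNA, fewer cells of a type and less of its RNA per cell cannot be told apart.

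Levels are given as log2 of the processed signal of a probe minus the 75th percentile of its array, so that 0 is the 75th percentile and a difference of 1 is a change of 2-fold. A probe was called when the Benjamini-Hochberg adjusted p of limma over all 34227 probes, with breed as a covariate, was under 0.05. For statements on genes, 1 probe was taken for each of 10653 named genes. The share of probes well above background had a median of 82.7% in IMF (76.6 to 86.2%) and 82.7% in Inter (78.3 to 86.4%). All 12 IMF arrays were scanned on 1 day and all 12 Inter arrays on another, and no slide held both, so on these 24 arrays scan day and slide cannot be told apart from depot. Scan day was therefore fitted over all 96 arrays, where day and depot are separated only through the other tissues. That fit takes a day to act alike on all tissues. It called 18008 probes, 15200 of them among the calls of the 24 arrays and in the same direction. In the opposite direction 42 were called. Without scan day the 96 arrays gave 20919 called, 20212 of them shared in the same direction.

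The label of each depot was checked first against genes of the adipocyte and of the myofibre. The mean level over the 15 adipocyte genes ran from 2.76 to 4.71 in IMF (median 3.85), from 4.08 to 5.10 in Inter (median 4.85) and from 0.07 to 2.58 in LD (median 0.82). Every IMF and Inter array was therefore above every LD array. The mean level over 23 skeletal myofibre genes ran from 5.10 to 7.02 in IMF (median 6.35), from -3.73 to 4.64 in Inter (median -3.04) and from 7.38 to 8.32 in LD (median 7.90). A muscle share was calculated for each array as the median over the myofibre genes of their signal relative to the LD mean. It had a median of 35.0% in IMF (14.5 to 54.1%) and 0.0322% in Inter (0.0188 to 9.44%). The IMF samples thus held myofibre RNA on every array. The Inter array at 9.44%, from a Wagyu x Angus steer, stood apart from the others, the next of which was at 0.903%. The share in IMF spread as widely within each breed, from 19.1 to 54.0% for Angus (median 51.9%), from 15.2 to 54.1% for Hereford (median 32.3%) and from 14.5 to 52.4% for Wagyu x Angus (median 28.7%), with 4 arrays each.

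**Figure D1:**
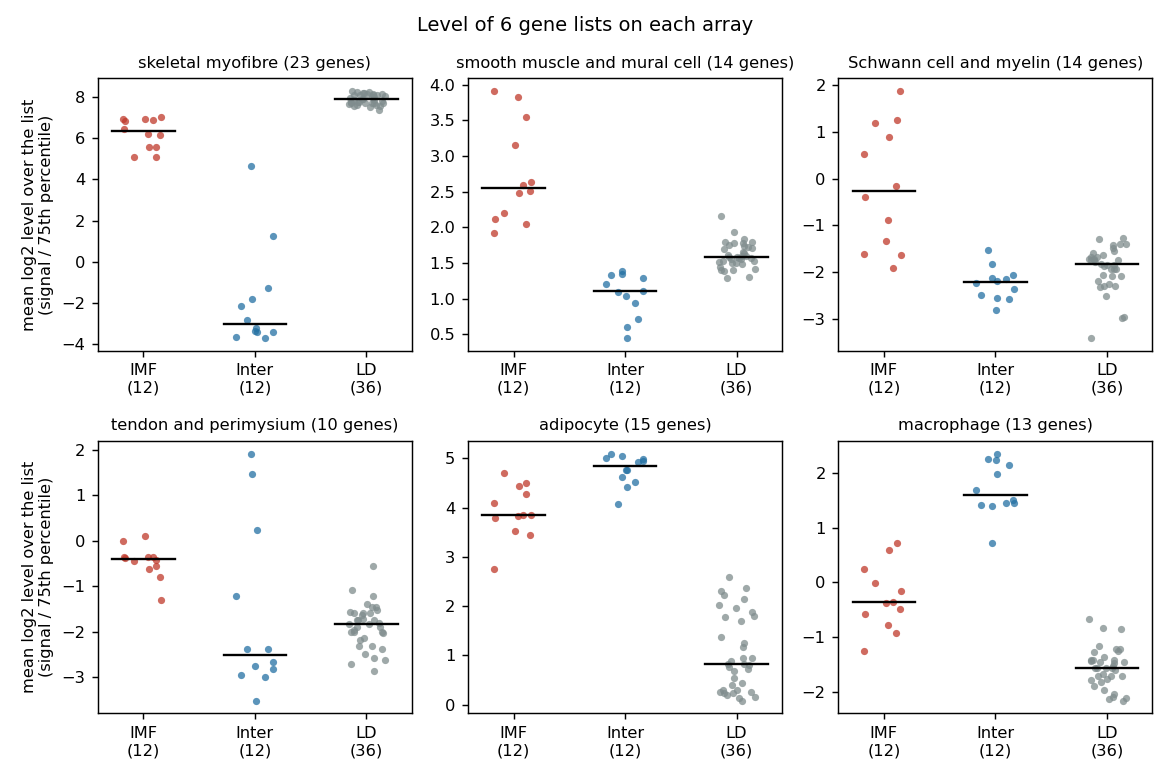
Mean log2 level over the genes of 6 lists on each of the 12 IMF, 12 Inter and 36 LD arrays; each point is 1 array and the black line is the median. Myofibre genes are high on all IMF arrays, smooth muscle genes are higher on all IMF than on all Inter arrays, the macrophage median is lower in IMF, and 3 Inter arrays lie above all IMF arrays for the tendon list.

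Probes whose mean over the LD arrays exceeded the Inter mean by more than 2 were set apart as muscle carry-over, 2700 of 34227. This choice uses the Inter arrays, which also enter the comparison, so the values of these probes are a description. The median IMF minus Inter difference was 1.47 over the probes set apart, and 2642 of them, 97.9%, were called higher in IMF, while 0 were called lower. The genes nearest the limit, on either side of it, were as follows. AAMDC, MAN2A2 and MAP1LC3B, just inside, were at 0.67, 0.71 and 0.81. MIX23, ATP5PF and ADAM23, just outside, were at 0.53, 0.72 and 1.18. Of 5 probes each, 4 of MAN2A2, 1 of MIX23 and 2 of ADAM23 were called higher.

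The 5 genes set apart with the largest differences all encode parts of the contractile or calcium handling machinery of muscle, apart from DHRS7C, a dehydrogenase of the sarcoplasmic reticulum. MYH1, a fast myosin heavy chain, ran from 5.79 to 8.08 in IMF (median 7.06) and from -6.57 to 3.67 in Inter (median -4.70), a difference of 10.75 (SE 0.79). SLN, a regulator of the calcium pump, differed by 10.45, DHRS7C by 10.18, ACTN2, which anchors actin at the Z disc, by 10.07 and MYBPC1, a myosin binding protein, by 9.91. None of the 5 overlapped between the depots, which was a condition for naming them. For DHRS7C and MYBPC1 only 5 of 12 Inter arrays were well above background, so their sizes are set against levels mostly at background. Counts of list members below include those set apart, and their number is given with each list that holds any. All 23 myofibre genes were set apart, and their median difference was 8.76.

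As a scale for the remaining genes, the means of the log2 levels of Inter and LD were brought to the linear scale. They were then mixed in the proportion given by each IMF array's muscle share. The mean of these 12 mixes minus Inter is called the mixed value below. It is a calculation from the Inter and LD levels, not a measurement of the fat within IMF. Over the 31527 probes not set apart, the median mixed value was -0.02 and the median IMF minus Inter difference was -0.02. A second measure took muscle share as a covariate beside depot and breed. Since the share is near 0 on 11 of 12 Inter arrays, that fit extends the trend over the 12 IMF arrays to a share of 0, and it called 5498 probes in place of 21738. The fit does not remove muscle RNA. In it 22 of the 23 myofibre genes were still called higher, with a median of 6.12 in place of 8.76, so a call that stays in this fit can still come with muscle RNA.

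Of the 34227 probes, 21738 were called, or 63.5%, with 11358 higher in IMF (33.2%) and 10380 lower (30.3%). Without the probes set apart, 8716 of 31527 were higher (27.6%) and 10380 lower (32.9%). Of these, 1508 were higher and 1932 lower by more than 1. The split depended on the scaling of the arrays. Of all calls 52.2% were higher in IMF, against 40.2% with quantile normalization, 34.8% with each array centred on its mean, 66.1% with the 75th percentile taken over probes not set apart, 62.8% with normexp background correction, 20.3% on the authors' table as deposited and 52.9% on that table after the 75th percentile was subtracted. The median of all probes was 0.04 as reported and moved to -0.10, -0.17, 0.19, 0.13, -0.35 and 0.04 in these settings, so differences of that size take their direction from the scaling.

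**Figure D2:**
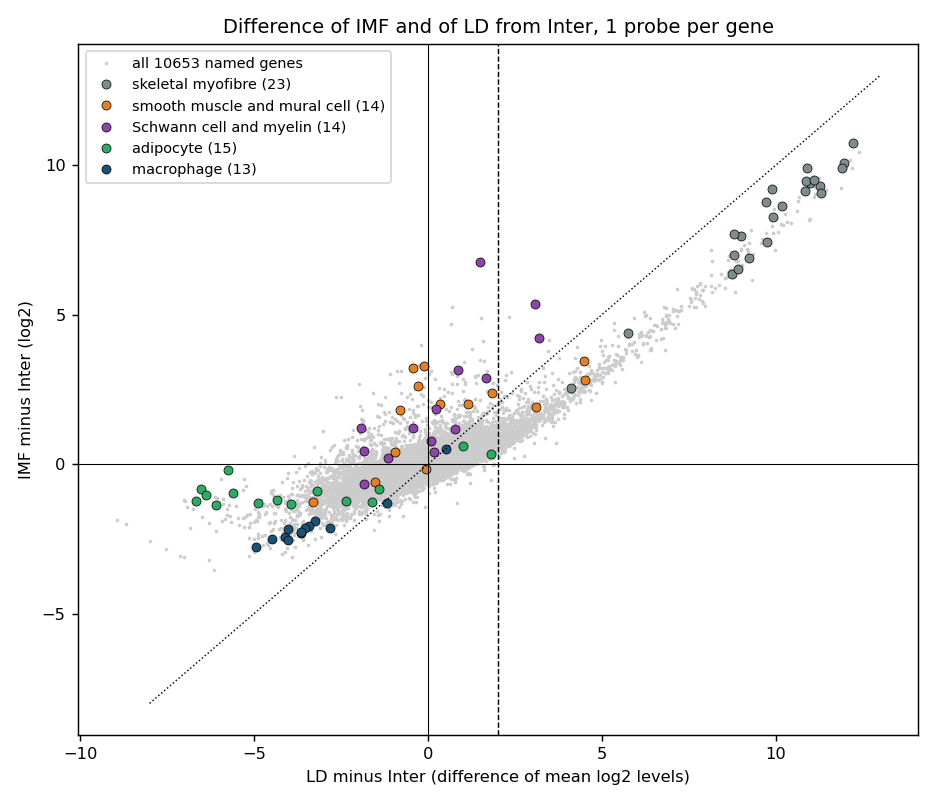
Each point is 1 of 10653 genes, with LD minus Inter on the x axis and IMF minus Inter on the y axis, both in log2 and both against the same Inter arrays. The dashed line at 2 is the limit for muscle carry-over, the dotted line is equality with LD, and coloured points are the genes of 5 lists; most Schwann cell and smooth muscle genes lie above 0 and most macrophage genes lie below -1.

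At the level of genes, 3633 of 10653 were higher in IMF (34.1%) and 3586 lower (33.7%). Every level measured in IMF was above every level measured in Inter for 629 genes (5.9%) and below them for 510 (4.79%). An outlier spot left a value missing on at least 1 array for 11 and 16 of these genes, which were compared over the arrays that had one. The genes with the largest differences among these, after the genes set apart were removed and at least 9 of 12 arrays of the higher depot were required to be well above background, are given next.

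LGI2, which encodes a secreted leucine-rich protein of the nervous system, had the largest fitted difference. It ran from -3.45 to -0.80 in IMF (median -1.53) and from -8.66 to -5.57 in Inter (median -6.99), with a value on 11 of the 12 IMF arrays, all well above background. In Inter 5 of 12 arrays and in LD 8 of 36 were well above background, so its size and its first place are set against levels mostly at background. The difference was 5.27 (SE 0.38, adjusted p = 1.57e-09 by limma), while the mixed value was 0.29. LCN1, a lipocalin gene, was 4.88 higher (SE 0.70, adjusted p = 3.8e-06), with -5.19 to 1.63 in IMF (median -2.52) and -9.19 to -5.71 in Inter (median -6.58). The IMF arrays were spread over almost 7 units of log2 for this gene, and the lowest of them was just above the highest Inter array. Well above background were 7 of 12 Inter and 23 of 36 LD arrays. ITGA8, an integrin chain found on smooth muscle and mesenchymal cells, was 3.86 higher (SE 0.42), with a median of -0.08 in IMF and -3.60 in Inter.

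Several of these genes have known roles in nerve or in contractile cells. UCHL1, an abundant ubiquitin hydrolase of neurons, was 3.46 higher in IMF (SE 0.38), SYT1, the calcium sensor of synaptic vesicles, 2.97 higher (SE 0.37, with 8 of 12 Inter arrays well above background), and KCNAB1, a subunit of potassium channels, 3.09 higher (SE 0.32). MYH11, the myosin heavy chain of smooth muscle, ran from 3.96 to 7.63 in IMF (median 5.49) and from 0.75 to 3.49 in Inter (median 2.75). It was 3.27 higher (SE 0.34, adjusted p = 5.42e-08 by limma). CNN1, the smooth muscle calponin, was 3.23 higher (SE 0.35), with 3.83 to 7.83 in IMF and 0.78 to 3.30 in Inter. The lowest IMF array of each gene was above the highest Inter array, and the mixed values were -0.04 for MYH11 and -0.15 for CNN1.

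The other genes of this group were ACTRT2, an actin-related gene, at 3.31 (SE 0.28), LMO3, a LIM domain transcription cofactor, at 3.17 (SE 0.30), RAMP3, which directs the calcitonin receptor-like receptor to the cell surface, at 3.1 (SE 0.25), and WNT6, a secreted Wnt ligand, at 2.96 (SE 0.51). RAMP3 ran from -0.39 to 1.54 in IMF (median 0.84) and from -3.30 to -0.95 in Inter (median -2.60). The 12 genes had mixed values of -0.24 to 0.78. With muscle share as a covariate all 12 remained called in the same direction, as did 22 of the 23 myofibre genes.

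**Figure D3:**
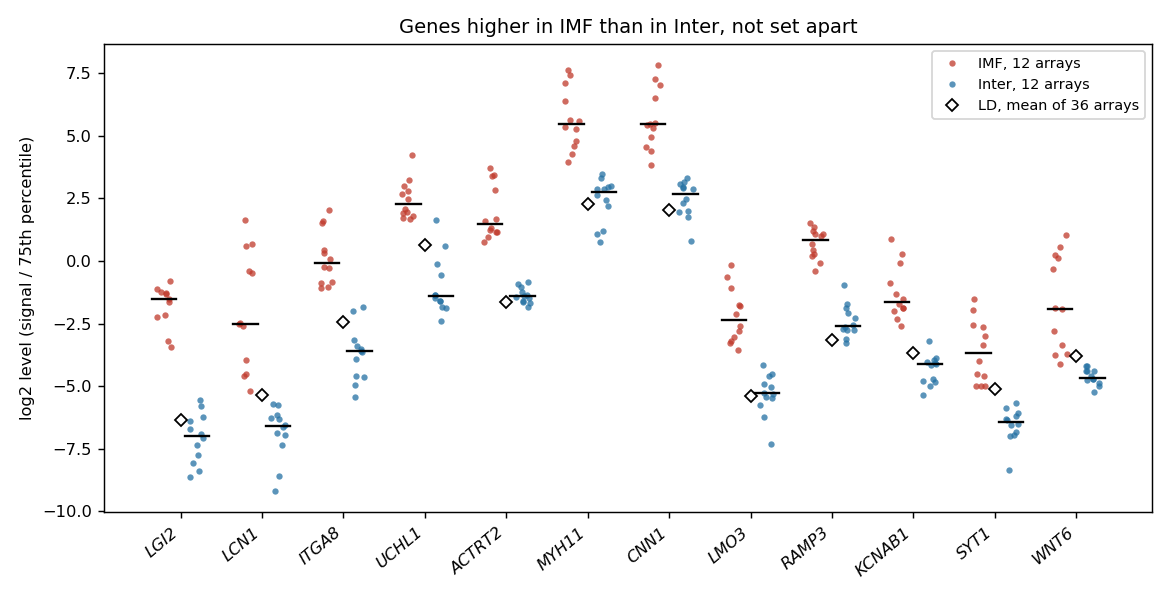
Log2 level of the 12 genes with the largest positive difference, not set apart, on 12 IMF (red, 11 for LGI2) and 12 Inter (blue) arrays, with the median as a line and the LD mean as a diamond. By the rule that chose them, the lowest IMF array of each gene lies above the highest Inter array.

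Next are 11 genes with the largest negative differences. CCL24, a chemokine that attracts eosinophils, ran from -1.77 to 1.01 in IMF (median -0.31) and from 1.54 to 3.61 in Inter (median 2.77). The difference was -3.07 (SE 0.30, adjusted p = 3.08e-08 by limma), and all IMF arrays were below all Inter arrays. CLEC4A, a C-type lectin of dendritic cells and macrophages, was at -2.82 (SE 0.31), BTK, a kinase of B cells and myeloid cells with a value on 11 IMF arrays, at -2.69 (SE 0.28) and MPEG1, the pore-forming perforin-2 of macrophages, at -2.55 (SE 0.24). MSR1, a macrophage scavenger receptor, was at -2.51 (SE 0.28) and FCGR1A, an Fc receptor of immunoglobulin G, at -2.50 (SE 0.26). For MPEG1, the levels were -1.76 to 0.15 in IMF (median -1.04) and 0.56 to 2.67 in Inter (median 1.69).

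FBN1, which encodes the microfibril protein fibrillin-1 and the hormone asprosin, ran from -1.92 to -0.49 in IMF (median -1.21) and from 0.17 to 3.07 in Inter (median 1.33), a difference of -2.54 (SE 0.30, adjusted p = 3.04e-07 by limma). F5, coagulation factor V, was at -2.48 (SE 0.27) and AKAP4, an anchoring protein known from sperm, at -2.54 (SE 0.34). PTAFR, the receptor of platelet-activating factor, was at -2.81 (SE 0.24), but its other probe was at -0.18 (SE 0.24, adjusted p = 0.523) and was not called. The probe of SMPD3, a neutral sphingomyelinase, was at -2.50 (SE 0.29), whereas the other SMPD3 probe was called in the opposite direction at 1.07 (SE 0.22, adjusted p = 0.000266), so its direction depends on the probe. The mixed values of the 11 genes lay between -0.67 and -0.60. All 11 remained called and lower with muscle share as a covariate.

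**Figure D4:**
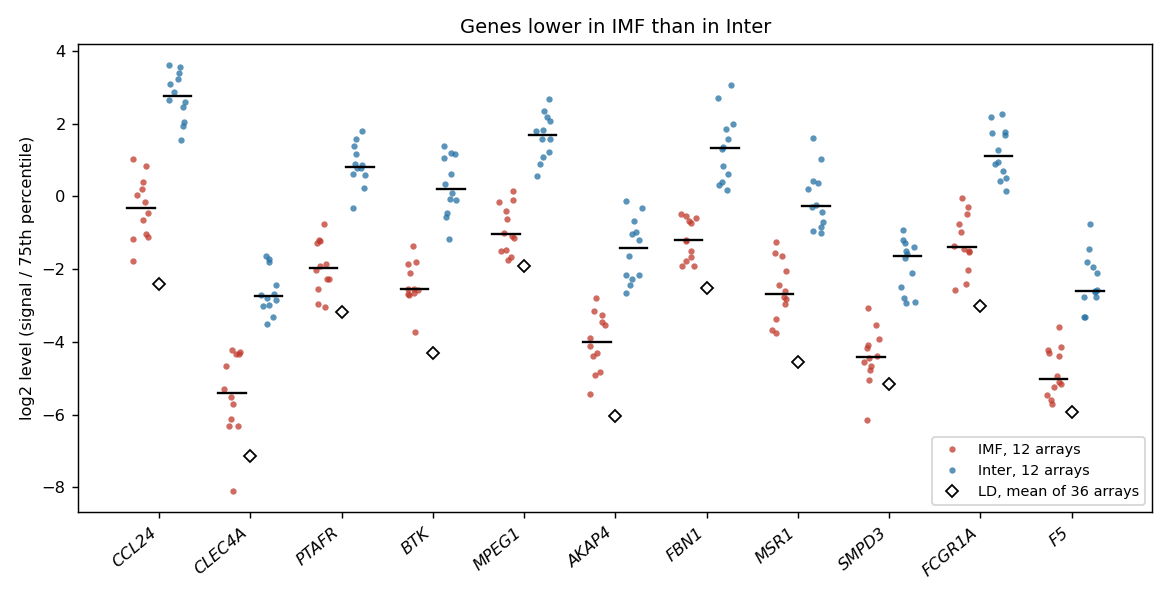
Log2 level of 11 genes with the largest negative differences on 12 IMF (red, 11 for BTK) and 12 Inter (blue) arrays, with the median as a line and the LD mean as a diamond. By the rule that chose them, the highest IMF array of each gene lies below the lowest Inter array.

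Genes of Schwann cells and myelin were higher in IMF for 10 of 14 members, and S100B was lower, against 34.1% higher and 33.7% lower over all genes. The counts of every list that follows have these shares as their background, with 4.92% above both and 6.35% below both Inter and LD. All 10 were also above LD, and 2 of the 14 were set apart. PMP2, a lipid binding protein of peripheral myelin, had a wide range, from -6.06 to 3.44 in IMF (median -0.04), where all 12 arrays were well above background, and from -9.06 to -5.35 in Inter (median -6.60), where 6 were. Its difference was 6.77 (SE 0.97, adjusted p = 3.97e-06 by limma), although the lowest IMF array lay within the Inter range. MBP, a structural protein of myelin whose probe was set apart, was 4.23 higher (SE 0.50), GFAP, an intermediate filament of non-myelinating Schwann cells, 3.16 higher (SE 0.61), and SOX10, the transcription factor of the Schwann lineage, 1.85 higher (SE 0.50).

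S100B, a calcium binding protein that adipocytes also express, was at -0.68 (SE 0.27, adjusted p = 0.0316 by limma). It was not called lower with slide as a random block, by the methods' t-test or with muscle share as a covariate. Nor was it with the 75th percentile taken over probes not set apart. PMP22, L1CAM and MAL were not called, at 0.20, 0.42 and 0.45. The mean level over the 14 genes ran from -1.91 to 1.88 in IMF (median -0.27), from -2.81 to -1.52 in Inter (median -2.22) and from -3.42 to -1.27 in LD (median -1.84). The IMF arrays differed from each other by almost 4 units, and the lowest of them overlapped with Inter. The median difference was 1.21 and the median mixed value 0.07. The fit with muscle share as a covariate called 11 genes higher, with a median of 3.38. Fitted within single breeds the median was 0.48 (Angus), 1.79 (Hereford) and 1.99 (Wagyu x Angus), with 2, 7 and 7 genes called higher.

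Genes of smooth muscle and mural cells were higher in IMF for 10 of 14 members and lower for 2, against 34.1% and 33.7% of all genes. Of the 10, 3 were set apart, and 7 of the 14 were above both Inter and LD, against 4.92% of all genes. ACTA2, the smooth muscle actin, ran from 5.34 to 8.48 in IMF (median 6.87) and from 3.21 to 5.05 in Inter (median 4.39), a difference of 2.60 (SE 0.25, adjusted p = 2.02e-08 by limma) with no overlap. LMOD1, a smooth muscle leiomodin, was 2.37 higher, SMTN, smoothelin, 2.01 higher, RGS5, a signalling regulator of pericytes, 2.01 higher and TAGLN, transgelin, 1.82 higher. MCAM and PDGFRB, surface receptors of pericytes, were lower, at -1.27 (SE 0.17) and -0.60, and KCNJ8 and CSPG4 were not called. The mean level of the list ran from 1.92 to 3.91 in IMF and from 0.44 to 1.39 in Inter, without overlap, and from 1.29 to 2.15 in LD. The median difference was 2.01, the median mixed value -0.03, and the median with muscle share as a covariate 1.71, with 8 genes called higher.

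Genes of tendon and perimysium, the connective sheath of muscle bundles, were higher for 4 of 10 members, near the 34.1% of all genes, and lower for 0. Of the 4, 3 were above LD too. TNMD, tenomodulin, was 2.83 higher (SE 1.09, adjusted p = 0.0276), with -1.82 to 1.82 in IMF (median 0.08) and -7.36 to 3.75 in Inter (median -4.65). MKX, a transcription factor of tendon, was 2.26 higher (SE 0.60) and TNC, tenascin-C, 1.97 higher (SE 0.54). The Inter arrays were widely spread, and the array of the highest muscle share had the highest mean over the list, 1.91, against -3.52 to 1.45 on the other 11 and -1.30 to 0.11 in IMF. Without that array 6 of 10 were called higher, with a median of 1.13 in place of 0.88. Within Hereford alone 8 were called, and within Angus alone or Wagyu x Angus alone 0. With muscle share as a covariate limma called 0, and 1 had an unadjusted p under 0.05.

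Macrophage genes were lower in IMF for 12 of 13 members. VSIG4, a complement receptor of resident macrophages, was at -2.76 (SE 0.29, adjusted p = 6.33e-08 by limma), with -3.76 to -0.80 in IMF (median -2.57) and -0.80 to 1.57 in Inter (median 0.23). The depots overlapped narrowly for this gene. C1QB and C1QA, chains of the first complement component, were at -2.54 and -2.44, CSF1R, the receptor that maintains macrophages, at -2.31, TYROBP, a signalling adaptor of myeloid cells, at -2.27 and CD163, a haemoglobin scavenger receptor, at -2.15. CD14, a co-receptor for lipopolysaccharide, ran from -1.09 to 0.47 in IMF (median -0.42) and from 0.73 to 3.86 in Inter (median 1.73), a difference of -2.08 (SE 0.27) with no overlap. LYZ, lysozyme, was higher by 0.49 (SE 0.10). The mean level of the list ran from -1.26 to 0.72 in IMF and from 0.71 to 2.35 in Inter. The median difference was -2.15 and the median mixed value -0.62. The muscle share fit called 7 of 13 lower and 0 higher, with a median of -1.34.

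Among 17 complement genes, 8 were lower and 1 higher, against 33.7% and 34.1% of all genes. CFB, factor B, was at -3.19 (SE 0.49, adjusted p = 8.1e-06 by limma), with -0.24 to 3.55 in IMF (median 1.82) and 2.94 to 6.66 in Inter (median 4.70). CFP, properdin, was at -2.38 (SE 0.22), C2 at -1.62 and CFD, the adipocyte protease adipsin, at -1.32. C3, the central component, and CFI, a regulator, were not called, at 0.17 and 0.32. C5 was called higher by 1.13 (SE 0.25), but only 6 of 12 IMF and 4 of 12 Inter arrays were well above background. The list median was -0.66 and the mixed value -0.52. In the muscle share fit the median turned to 0.49, with 3 genes higher and 1 lower, and with scan day fitted it was -0.37, with 0 higher and 6 lower.

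Lymphocyte genes did not move in 1 direction, with 6 of 17 higher and 8 lower, against 34.1% and 33.7% of all genes, and a median of 0.05, which turned negative with quantile normalization, at -0.35. With scan day fitted 5 were higher and 3 lower, in the muscle share fit 0 and 3, and on the table as deposited 1 and 9 (median -0.61). CR2, the complement receptor of B cells and follicular dendritic cells, was at -2.93 (SE 0.30) and CCR7, a homing receptor, at -1.46, while TNFRSF13C and MS4A1, of B cells, were at 0.97 and 0.89. Of 15 interferon stimulated genes 8 were lower and 0 higher, with a median of -0.67. With scan day fitted over 96 arrays 3 were lower and the median was -0.18, and in the muscle share fit 2 were lower, 1 was higher and the median was -0.10. The immediate early genes, which respond within minutes to handling or stress of tissue, were higher for 4 of 15 and lower for 5, both below the shares of all genes (34.1% and 33.7%), with MYC at -1.57 (SE 0.18) and NR4A2 at 1.06 (SE 0.24). With scan day fitted 0 were higher and 2 lower, and the median turned from 0.05 to -0.17.

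**Figure D5:**
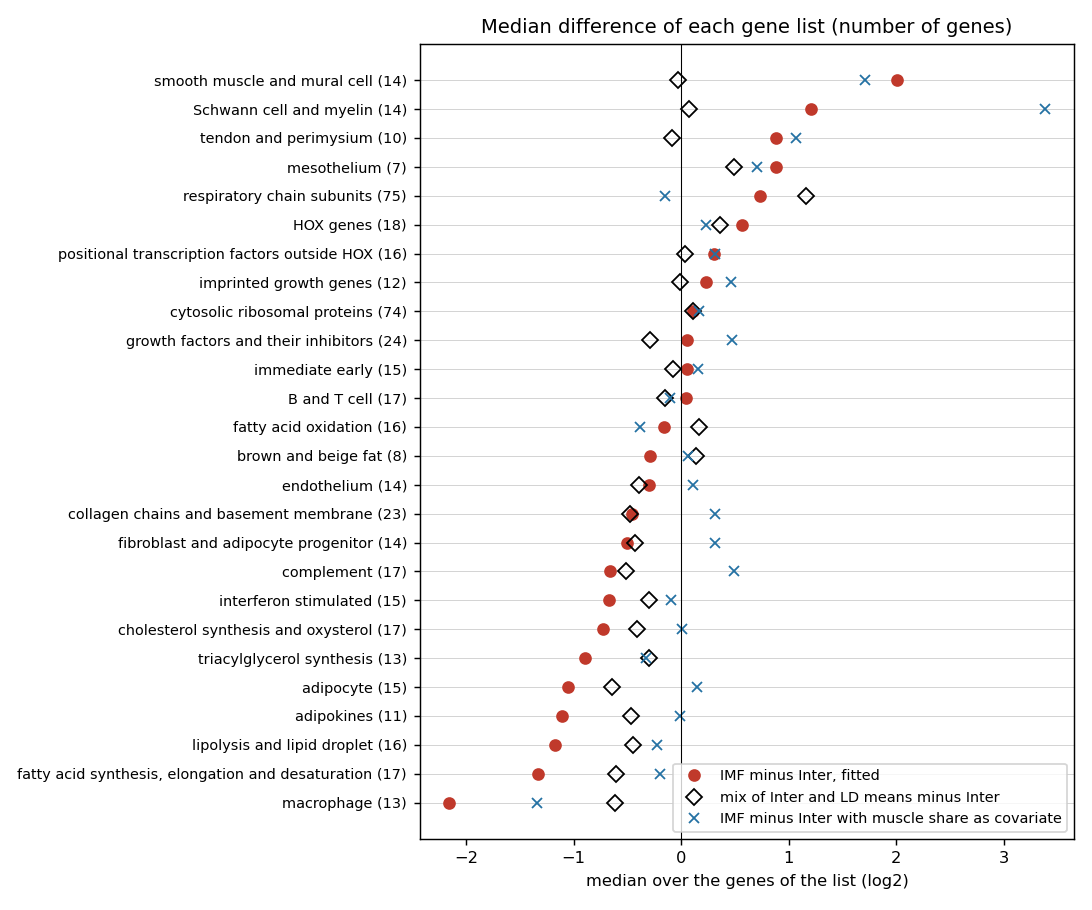
Median difference in log2 over the genes of each list (gene number in parentheses, skeletal myofibre genes not shown), as fitted (red), as given by mixing the Inter and LD means at the muscle share of the IMF arrays (diamonds), and with muscle share as a covariate (crosses). Macrophage, smooth muscle and Schwann cell lists keep their direction with the covariate, as does the myofibre list that is not drawn (median 6.12), whereas the adipocyte, complement, progenitor and collagen lists are among those that change sign.

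Of 15 adipocyte genes 12 were lower in IMF and 1 was higher. ADIPOQ, adiponectin, ran from 1.40 to 4.08 in IMF (median 2.98) and from 3.70 to 4.59 in Inter (median 4.27), a difference of -1.36 (SE 0.23, adjusted p = 2.3e-05 by limma). PPARG, the master transcription factor of the adipocyte, was at -1.30 (SE 0.16), with 1.81 to 3.75 in IMF and 3.82 to 4.49 in Inter and no overlap. FABP4, the fatty acid binding protein of adipocytes, was at -0.18 (SE 0.11, adjusted p = 0.168) with a mixed value of -0.68, and the medians of 7.97 and 8.01 were close. SLC2A4, the insulin responsive glucose transporter that muscle shares, was higher by 0.60 (SE 0.12). The list median was -1.05 and the mixed value -0.65. In the muscle share fit limma called 0 of 15, 2 had an unadjusted p under 0.05, and the median was 0.15.

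Enzymes of fatty acid synthesis were lower for 15 of 17 members and higher for 0. ACSS2, which activates acetate, the main carbon source of fat in ruminants, ran from 0.06 to 3.28 in IMF (median 1.39) and from 1.32 to 4.96 in Inter (median 4.25). Its difference was -2.05 (SE 0.40, adjusted p = 0.000148 by limma), and the depots overlapped. IDH1, a source of NADPH, was at -1.88, THRSP, a lipogenic regulator, at -1.87 (SE 0.41), ELOVL6, an elongase, at -1.76 and SCD, the desaturase that makes monounsaturated fat, at -1.33 (SE 0.29). FASN, the fatty acid synthase, was at -1.03 (SE 0.36, adjusted p = 0.0152). SREBF1, a transcription factor of lipogenesis, was at -0.01 (SE 0.13) and TECR, of elongation, at 0.17, neither called. The list median was -1.33, with a mixed value of -0.61 and -0.19 in the muscle share fit, where limma called 0 and 0 had an unadjusted p under 0.05.

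Triacylglycerol synthesis was lower for 9 of 13 genes and higher for 0, with a median of -0.89 and 1 member set apart. PCK1, which supplies glycerol 3-phosphate from smaller carbon skeletons, was at -2.11 (SE 0.37), PCK2 at -1.76, GPAM, the first acyltransferase, at -1.72 and DGAT2, the last, at -1.66 (SE 0.24). Among the genes of lipolysis and the lipid droplet 13 of 16 were lower and 2 were higher. G0S2, an inhibitor of adipose triglyceride lipase, was at -1.97 (SE 0.23), CIDEA, a droplet protein, at -1.88 and PLIN2, a droplet coat protein, at -1.64 (SE 0.16) with no overlap. ABHD5, the activator of that lipase, ran from -2.53 to -1.31 in IMF (median -1.88) and from -1.21 to 0.39 in Inter (median -0.45), a difference of -1.44 (SE 0.17), and was also below LD by 0.21 (SE 0.07). PLIN5, the perilipin of oxidative tissues, was higher by 0.82 and ADRB1 by 0.47. The muscle share fit still called 1 gene of triacylglycerol synthesis and 2 of lipolysis lower, and the medians went from -0.89 to -0.33 and from -1.17 to -0.23.

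Adipokines were lower for 7 of 11 genes and higher for 3, of which 1 was set apart. Their median of -1.11 went to -0.01 in the muscle share fit, where limma called 0 and 2 had an unadjusted p under 0.05. LEP, leptin, was at -1.83 (SE 0.29), with -3.46 to 0.00 in IMF (median -1.40) and -0.36 to 1.09 in Inter (median 0.56). IL6, interleukin-6, was at -1.93, and RARRES2, chemerin, at -1.11 with no overlap. NAMPT was higher by 1.35 but set apart. Genes of fatty acid oxidation were lower for 7 of 16 and higher for 3, against 33.7% and 34.1% of all genes, and 3 were below both Inter and LD, against 6.35%. The muscle share fit called 3 lower and 0 higher. ACADL, the long chain acyl-CoA dehydrogenase, ran from -1.16 to -0.50 in IMF and from -0.31 to 1.91 in Inter, a difference of -1.47 (SE 0.17), and ACADM, the medium chain enzyme, was higher by 0.88 (SE 0.14) with a mixed value of 0.96.

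Cholesterol synthesis and oxysterol genes were lower for 12 of 17 and higher for 3, with a median of -0.73. In the muscle share fit 0 were lower, 1 was higher and the median was 0.01. INSIG1, a sterol-sensing regulator of the pathway, was at -1.20 and CYP27A1, the sterol 27-hydroxylase, at -1.41 (SE 0.17). CH25H, which makes 25-hydroxycholesterol, was 1 of the 3 higher genes, with 1.20 to 3.68 in IMF (median 2.71) and -0.84 to 1.58 in Inter (median 0.31). It was 2.37 higher than Inter (SE 0.23, adjusted p = 2.32e-08 by limma) and 3.95 higher than LD (SE 0.25). The lowest IMF array lay below the highest Inter array, so the groups overlapped. Of 8 brown and beige fat genes 3 were higher, 2 of them set apart, and 2 lower, near the shares of all genes (34.1% and 33.7%). Their median of -0.29 turned to 0.22 with normexp, 0.10 with scan day fitted and 0.06 in the muscle share fit. UCP1 was at -0.46 (SE 0.51, not called), with 7 of 12 arrays well above background in either depot, and DIO2, which activates thyroid hormone, was 2.71 higher (SE 0.35).

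Collagen chains and basement membrane genes were lower for 12 of 23 and higher for 4. The members that were higher were the chains COL4A5 and COL4A6, COL28A1, a collagen of peripheral nerve, and COL4A3. COL4A6 ran from -0.91 to 1.80 in IMF (median -0.02) and from -3.31 to -1.50 in Inter (median -2.24), a difference of 2.57 (SE 0.28) with no overlap, and COL4A5 was 2.08 higher (SE 0.23), also with no overlap. COL28A1 was 3.11 higher (SE 0.74) and COL4A3 4.16 higher (SE 0.60), the latter set apart. COL4A1 and COL4A2, the common chains of basement membrane, were lower, at -0.83 and -1.22. The fibrillar chains COL1A1, COL1A2 and COL3A1 were not called, at -0.10, -0.14 and -0.27. Progenitor and fibroblast genes were lower for 7 of 14, led by MFAP5 at -1.41 (SE 0.33). DLK1, an inhibitor of adipogenesis also found in muscle, was higher by 1.54 (SE 0.27) but set apart. Of the 14, 4 were lower with the 75th percentile over probes not set apart, 10 with quantile normalization and 12 on the table as deposited. The median with muscle share as a covariate was 0.32 for the collagen list, with 5 higher and 2 lower, and 0.31 for the progenitor list, with 0 called by limma and 2 at an unadjusted p under 0.05. With scan day fitted 9 collagen genes were lower and 3 progenitor genes, with medians of -0.23 and -0.32.

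Endothelial genes were lower for 7 of 14 and higher for 1, against 33.7% and 34.1% of all genes, with a median of -0.30 and a mixed value of -0.39. The muscle share fit turned the median to 0.11, with 2 higher and 1 lower. On the table as deposited 1 was higher and 12 lower (median -0.66). With the 75th percentile over probes not set apart 2 were higher and 6 lower (median -0.14). LYVE1, of lymphatic endothelium and of resident macrophages, was at -2.31 (SE 0.25). PROX1, the transcription factor of lymphatic endothelium, was 1.75 higher (SE 0.19) with a mixed value of 1.02. MIX23 and ADAM23, just outside the limit for muscle carry-over, also had a mixed value of 1.02. PECAM1, TIE1 and EMCN, found throughout the vascular endothelium, were at -0.01, 0.17 and -0.11 and were not called. Genes of mesothelium, the lining of body cavities, were higher for 5 of 7 members, 1 of them set apart, and for 2 in the muscle share fit. With quantile normalization, with each array centred on its mean and on the table as deposited 3 were higher. Of the 12 genes asked for, KRT7, LRRN4, WT1, BNC1 and ITLN1 had no named probe. The largest was KRT18, a simple keratin, at 4.69 (SE 0.71), with -3.45 to 3.78 in IMF (median 0.15) and -5.52 to -2.63 in Inter (median -4.36). UPK3B was not called, at 0.16.

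Respiratory chain subunits were higher for 69 of 75 members, with a median of 0.73 and a mixed value of 1.16, and 45 of them were set apart. COX6A2, COX8B and COX7A1, the isoforms of heart and skeletal muscle, were at 7.77, 3.49 and 2.76. COX6A1, COX8A and COX7A2, isoforms of other tissues, were the 3 that were lower, at -0.84, -0.69 and -0.74. The muscle share fit gave a median of -0.15, with 2 higher and 6 lower. Cytosolic ribosomal proteins were higher for 23 of 74 and lower for 6, against 34.1% and 33.7% of all genes, with a median of 0.11. The median turned to -0.24 with quantile normalization, where 4 were higher and 47 lower. With the 75th percentile over probes not set apart 58 were higher and 4 lower (median 0.26), so the balance depended on the scaling. RPL3L, the muscle form of RPL3 and the 1 member set apart, was at 7.39 and RPL3 at -0.68.

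Positional transcription factors keep a record of where in the body a cell arose. Of 18 HOX genes 11 were higher in IMF and 2 were lower, with a median of 0.56 and a mixed value of 0.36, and 2 were set apart. The muscle share fit left 1 higher and 0 lower, with a median of 0.23, and the table as deposited gave 4 higher and 6 lower, with a median of 0.10. HOXA10 was set apart, with -3.18 to -1.11 in IMF (median -2.43) and -8.37 to -1.25 in Inter (median -5.29), and differed by 2.75 (SE 0.64). HOXC6 was higher by 0.47 (SE 0.07) with no overlap, and HOXB2 was lower, at -0.55 (SE 0.11). Outside HOX, 7 of 16 were higher, 1 of them set apart, and 4 lower, against 34.1% and 33.7% of all genes, and 2 were higher and 0 lower in the muscle share fit. On the table as deposited 4 were higher and 6 lower, and the median turned from 0.30 to -0.08. SHOX2, a homeobox gene of the proximal limb, was 1.20 higher than Inter (SE 0.27) and 2.76 higher than LD (SE 0.15). Imprinted genes were higher for 6 of 12, of which 3 were set apart, and lower for 3, with GRB10, an adaptor of insulin signalling that was set apart, at 2.02 and NNAT at -1.55. The table as deposited gave 3 higher and 5 lower, with the median turned from 0.23 to -0.15, and the muscle share fit called 1 higher and 0 lower.

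Of 24 growth factors and their inhibitors 8 were higher, near the 34.1% of all genes, and 4 were lower. Of the 24, 7 were above both Inter and LD, as were 4.92% of all genes. The balance depended on the setting, with 9 higher and 3 lower for the 75th percentile over probes not set apart (median 0.21) and 5 higher and 0 lower in the muscle share fit (median 0.47). It turned to 4 higher and 6 lower with quantile normalization (median -0.07) and 4 higher and 10 lower on the table as deposited (median -0.31), from a median of 0.05. INHBA, a subunit of activin A, ran from -0.24 to 2.92 in IMF (median 1.98) and from -2.52 to 1.03 in Inter (median -1.69). It was 3.02 higher than Inter (SE 0.41, adjusted p = 1.8e-06 by limma) and 3.01 higher than LD (SE 0.22). SFRP1 and DKK3, secreted modulators of Wnt signalling, were 2.45 and 1.50 higher, and TGFB3 was 1.55 higher. IGFBP4, which binds insulin-like growth factors, was at -1.29 (SE 0.18).

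A mix of Inter and LD means lies between the 2 on this scale, so genes whose IMF level was called higher than both, or lower than both, were counted. These calls compare means, and single arrays of IMF and LD can overlap. IMF was above both Inter and LD for 1927 probes (5.63%) and below both for 2089 (6.1%), and at the level of genes for 524 (4.92%) and 676 (6.35%). Both contrasts rest on the same IMF arrays. Over the other scalings and background corrections, 1018 to 2265 probes were above both and 212 to 3963 below both. Among genes without overlap between IMF and Inter, those furthest above the nearer tissue were LGI2, LCN1, ACTRT2, MYH11, CNN1, LMO3, RAMP3 and NDRG4. Of these, LGI2, LCN1 and LMO3 had 8, 23 and 21 of 36 LD arrays well above background, so their places are less certain. LGI2 was 4.54 above LD (SE 0.27), RAMP3 was 3.88 above it (SE 0.20) and MYH11 3.39 (SE 0.23). NDRG4, a gene of neurons and heart, was 2.88 above Inter (SE 0.32) and 2.98 above LD (SE 0.24).

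Under the same limit, the genes furthest below both were TMEM176A, HPRT1, CGRRF1, NUDT4, CAPZB, GK, MTMR10 and TARS1, and their distances were smaller, at 0.59 to 1.01 from the nearer tissue. TMEM176A, a membrane protein of immature dendritic cells, ran from -4.12 to -2.73 in IMF (median -3.40) and from -2.47 to -0.75 in Inter (median -1.98). It was -1.72 from Inter (SE 0.20) and -1.01 from LD (SE 0.20). HPRT1, a purine salvage enzyme often used as a reference gene, was at -0.96 from Inter (SE 0.13, adjusted p = 1.2e-06 by limma) and -1.0 from LD (SE 0.08), with -0.86 to 0.23 in IMF and 0.42 to 1.38 in Inter. CAPZB, an actin capping subunit, was at -1.03 (SE 0.10) and GK, glycerol kinase, at -0.91 (SE 0.14) from Inter. MTMR10 was at -1.13 (SE 0.13), while its other probe was at -0.27 (SE 0.12) and not called. TARS1, a threonyl-tRNA synthetase, was at -0.65 (SE 0.08), NUDT4, a hydrolase of phosphorylated inositols, at -0.98 (SE 0.13) and CGRRF1, a ubiquitin ligase, at -0.65 (SE 0.09).

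To show whether a difference lay on the IMF or the Inter side, each was set against the mean of subcutaneous (SC), kidney (Kid) and omental (Omen) fat in 1 fit over the 60 fat arrays. The 2 contrasts share these 36 control arrays and are given side by side. LGI2 was at 4.30 in IMF (SE 0.36) and -0.99 in Inter (SE 0.35), MYH11 at 3.79 and 0.51 (SE 0.34 for both), and CH25H at 3.1 and 0.72 (SE 0.25 for both). MSR1 was at -2.68 in IMF and -0.17 in Inter (SE 0.34 for both). For CCL24, by contrast, IMF was at -1.49 and Inter at 1.58 (SE 0.27 for both), and for FBN1 at -0.81 and 1.73 (SE 0.27 for both). LYVE1 was likewise at -0.79 and 1.51 (SE 0.25 for both). These 3 were thus lower than the other depots in IMF and higher in Inter. The adjusted p by limma ran from 3.39e-06 to 0.00709 in IMF and from 5.23e-06 to 2.37e-05 in Inter. The fit held no term for muscle share or scan day. The mixed values were -0.67 for CCL24 and -0.63 for FBN1, and the part of muscle RNA in the IMF values was not tested. TNMD was above the other depots in both, by 6.90 in IMF and 4.06 in Inter (SE 0.75 for both), as was SHOX2, by 2.97 and 1.77 (SE 0.23 for both). HOXA10 was at 0.23 in IMF and -2.52 in Inter (SE 0.48 for both).

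The difference between the depots was then allowed to depend on breed. By limma 0 of 34227 probes were called for this dependence (0%), and 2140 had an unadjusted p under 0.05. The 4 arrays for each breed and depot limit the precision of this test. Within breeds the IMF minus Inter difference of UCHL1 was 4.35 for Angus, 4.53 for Hereford and 1.49 for Wagyu x Angus, that of MYH11 was 2.64, 4.61 and 2.57, and that of PMP2 was 4.44, 5.99 and 9.88. For MSR1 the values were -2.74, -2.99 and -1.78, and for ADIPOQ -1.35, -1.88 and -0.86. Over all probes, 11828 were called with Angus alone, 12861 with Hereford alone and 3794 with Wagyu x Angus alone, the group that holds the Inter array of the highest muscle share.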

How the data were processed

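Total RNA of 96 samples was hybridised to 1 array each, and the 24 IMF and Inter arrays and 36 LD arrays were used, with SC, Kid and Omen as a reference. The authors deposited scanner output with a processed spot intensity (Agilent Feature Extraction 10.7.3.1, background subtracted, not scaled between arrays) and a table of log2 values for 34227 of 43653 probes. The values of that table differed by at most 8.32e-05 from log2 of the median signal minus the local background, set to at least 1, so they were not scaled between arrays. Outlier spots were left out, spots of a probe averaged, and log2 intensity was centred on the 75th percentile of the array. RefSeq accessions named 19903 probes and names given by the study another 1542, for 10653 genes (62.7% of probes). Per gene the probe with the highest mean over all arrays was taken.

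Groups come from the fat depot label. limma 3.58.1 in R 4.3.3 fitted depot and breed on the arrays compared. Genes named are the 12 largest positive and 12 largest negative differences among probes not set apart, the 5 largest set apart, and the 8 furthest above and 8 furthest below both Inter and LD, all called, without overlap and well above background on at least 9 of 12 arrays of the higher depot, plus list members by size. These members, lists and tests were chosen with earlier results of these data known. Comparisons were tested on simulated data. Precision is limited by 12 arrays per depot, and 0 spots were saturated. Alternatives were other scalings, background corrections, starting values, filters, covariates, blocks, the methods' t-test and single breeds. Normexp used median signals. Replicate numbers equal slide positions and did not pair the samples (the check is given under the processing alternatives). Sequences were not used here. Some genes that these rules name, 1 of the 12 largest negative differences among them, are not reported here.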

Additional observations from a re-analysis of the deposited data

How the results depend on the processing

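Of 760 values for 38 named genes under 20 alternatives, 753 kept direction and call, 0 reversed, and 7 lost their call, all in single breeds: WNT6 with Angus alone, and UCHL1, ACTN2, MYBPC1, NUDT4, GK and MTMR10 with Wagyu x Angus alone. Of 567 list medians, 511 moved by less than the spread between arrays, 56 moved further and 35 took another sign. Counts moved by over 1.5 times as follows, where higher, lower, above and below refer to probes not set apart and to both Inter and LD, and the cause was not tested. Quantile normalization gave 1167 above and 3237 below, and 1 unnamed probe whose difference depended on breed. Centring on the mean gave 5404 higher, 1093 above and 3963 below. Normexp gave 13385 higher and 1018 above. The deposited table gave 3669 higher, 18031 lower and 212 below. Muscle share as a covariate gave 5498 called, 2173 higher and 2508 lower. A limit of 1 for probes set apart left 4670 higher. Single breeds have fewer samples: Angus gave 11828 called, 3742 higher, 5652 lower, 416 above and 374 below, Hereford 12861 called, 4969 higher, 5751 lower and 1004 below, and Wagyu x Angus 3794 called, 1090 higher, 1445 lower, 332 above and 157 below. With the Inter array of the highest muscle share left out, an alternative chosen after seeing the data, 21643 probes were called, and with slide as a random block 19562. Samples with the same replicate number correlated at -0.08 to 0.16 in their deviations (4 pairs) and others at -0.21 to 0.27 (12 pairs), so the numbers do not pair the samples, and the replicate block gave 21623 called against 21738 without it. Signal over background limits genes such as LGI2, with 5 of 12 Inter arrays well above it.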
